A study of Mus musculus with 6 samples.

Results

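The genes described here are 41 genes of macrophages, dendritic cells and other myeloid cells, measured in intestinal epithelial cell preparations. They were chosen as a list of named genes, and for each the brightest probe set on average was taken among those that the platform annotation gives to that symbol alone. Of the 41 genes, 40 were measured in this way, among 18193 genes in all. Lilrb4a shares its probe set with a neighbouring gene in the annotation and was not analysed here.

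The arrays came from 3 GGTase-Iβ deficient mice and 3 floxed control mice, with 1 array of total RNA per mouse. The deficient mice were Pggt-Iβ floxed and VillincreERT2 positive, the control mice Pggt-Iβ floxed and VillincreERT2 negative, and both were of a mixed 129/SV and C57BL/6 background. All 6 received 1 mg tamoxifen on each of 3 days, and cells were taken on day 6 from the start of treatment. Pggt1b encodes the beta subunit of the enzyme GGTase-I, which attaches an isoprenoid lipid to proteins. Villin drives the recombinase in epithelial cells, so a myeloid cell in the preparation is not a cell in which this promoter is known to act, and an effect of the recombinase itself cannot be told apart from that of the deletion. For the age and sex of the mice, the gut segment and any batch, nothing is stated in these sources.

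Macrophages of the gut wall lie under the epithelium, take up material that crosses it and are renewed from blood monocytes. They depend on the receptor encoded by Csf1r, and the transcription factor PU.1, encoded by Spi1, is needed for the lineage. Dendritic cells carry antigen to lymph nodes and depend on the receptor encoded by Flt3. Several of the 41 genes are also used by natural killer cells and by some intraepithelial lymphocytes, the T cells that lie between epithelial cells, among them the adaptors Fcer1g and Tyrobp.

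All 11 measured epithelial markers, among them Epcam and Vil1, lay above 5 (log2) on all 6 arrays, and none passed the test between groups. Of the 11, 9 had a higher mean in the deficient arrays. All deficient arrays lay above all controls for 4 of the 11, against 9% of all genes tested. Gzma, Igha and Col3a1, markers of other cell types, also lay above 5 on all 6 arrays, so the preparations did not read as epithelium alone. Correlations over the 8893 genes tested ran from 0.953 to 0.980 between arrays within a group and from 0.903 to 0.969 between groups. Between 35.5% and 36.5% of probe sets lay above 5 on each array. Pggt1b itself read 9.75, 8.88 and 8.83 in deficient replicates 1, 2 and 3, against 9.30, 9.55 and 9.33 in the control arrays (limma adjusted p = 0.678). No source places this probe set inside or outside the deleted part, so these values do not check the labels.

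Of the 40 measured genes, 8 fell in the deficient arrays and 0 rose. They were the signalling adaptors Fcer1g and Tyrobp, the macrophage receptor Adgre1 and its relative Adgre4, the protease Adamdec1, the oxidase subunit Ncf1, the protease Adam8 and the adenylyl cyclase Adcy7. Their log2 changes ran from -4.41 to -1.96, with limma adjusted p from 0.00183 to 0.0154. Genes were tested where they lay above 5 on at least 3 arrays, which 25 of the 40 did. The 8 that fell are 32.0% of these 25, while over all 8893 genes tested 1.98% passed in the lower direction and 0.112% in the higher direction, 2.09% in all. The genes were chosen with earlier results of these data known, so these shares are no test of the list. An unadjusted limma p under 0.05 was reached by 10 of the 25, all lower in the deficient arrays. Of all 8893 genes tested, 1504 reached it, in either direction. Adgre4 and Adam8 met the filter through the control arrays alone, so only a difference could bring them into the test. Among the 25, 23 had a lower mean in the deficient arrays, against 54.6% of all genes tested. The median log2 change of the 25 was -0.88 and that of all genes tested -0.04. In bulk RNA, fewer cells of a type and less RNA per cell cannot be told apart.

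**Figure D1:**
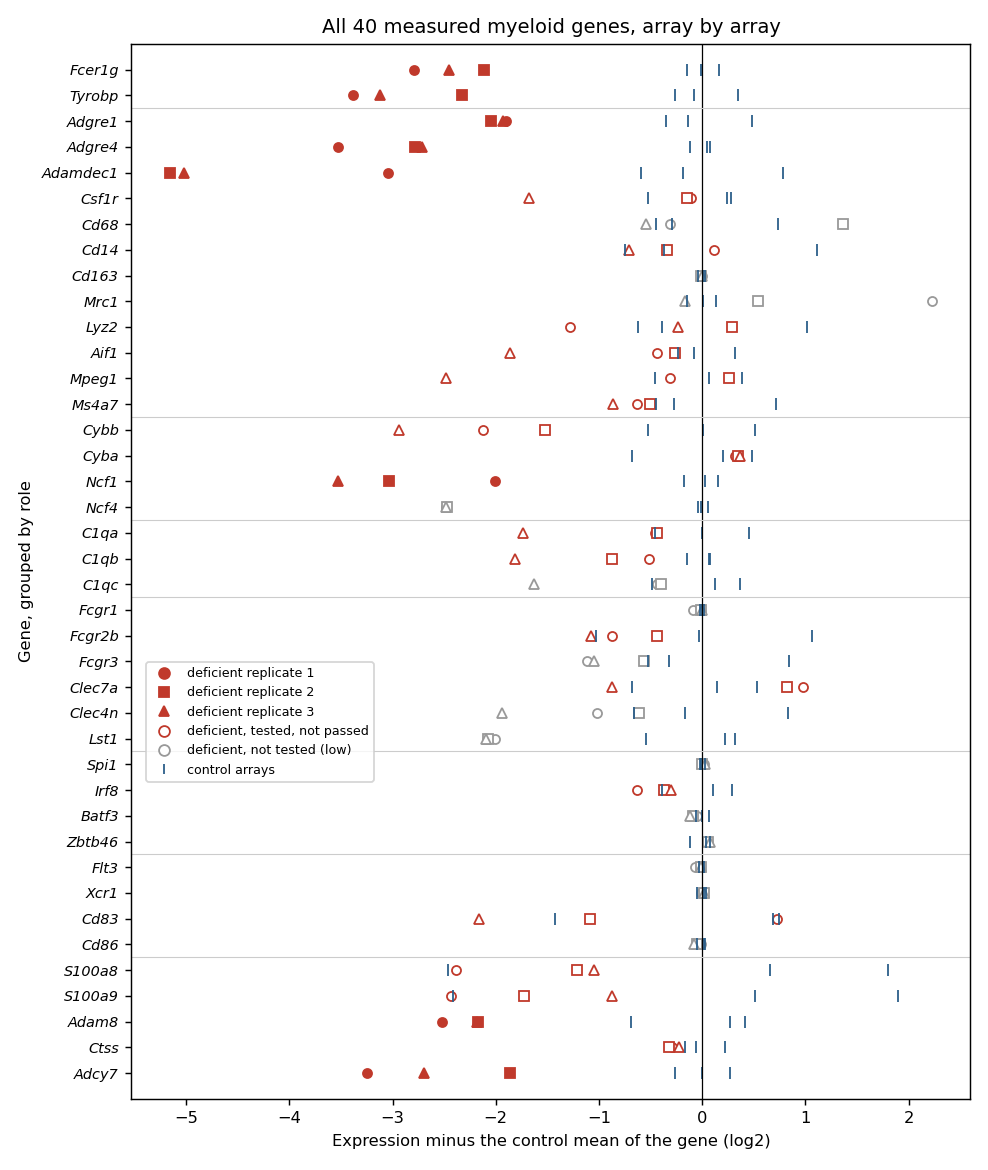
Expression of all 40 measured myeloid genes on each array minus the control mean of that gene (log2), grouped by role. Filled red symbols are deficient arrays of the 8 genes that passed limma at an adjusted p under 0.05, open red symbols those of tested genes that did not pass, grey symbols those of genes too low to test, and blue bars the control arrays; deficient replicate 3, the triangle, lies lowest for Csf1r, Mpeg1, Aif1 and the C1q chains.

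Fcer1g and Tyrobp encode small membrane adaptors that carry the activating signal of receptors which have none of their own. Fcer1g, the gamma chain shared by Fc receptors, read 6.07, 6.76 and 6.42 in deficient replicates 1, 2 and 3, against 9.03, 8.86 and 8.72 in control replicates 1, 2 and 3. Every deficient array lay below every control array. The fall was 5.48-fold (log2 -2.45 ± 0.22, SE, n = 3 each, limma adjusted p = 0.00227). Tyrobp, also called DAP12, read 6.89, 7.95 and 7.16 in the deficient arrays, against 10.62, 10.20 and 10.01 in the control arrays, again without overlap. It fell 7.71-fold (log2 -2.95 ± 0.31, limma adjusted p = 0.00464). Leaving out any 1 of the 6 arrays ended neither call. With every gene tested, without the filter on low values, Tyrobp did not pass (limma adjusted p = 0.0568), while Fcer1g did (0.0245).

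Of the receptors that pair with these adaptors, a list of 12 could not be followed. None of the 12, among them Trem1, Trem2, Clec5a, Fcgr4, Klrk1 and Ncr1, lay above 5 on any array. That list leaves out the Fc receptors and lectins among the myeloid genes, which are described below. Of the kinases and adaptors that act after such receptors, 12 of 15 listed were measured, 8 were tested and 1 fell. This was Lcp2, an adaptor of T cells and myeloid cells, which read 3.16, 3.35 and 4.24 in the deficient arrays and 6.94, 6.70 and 6.60 in the control arrays. It was at least 3.36-fold lower (limma adjusted p = 0.00318). Syk, the kinase that binds both adaptors, read 8.69, 6.68 and 6.13 in the deficient arrays, against 7.47, 6.74 and 7.03 in the control arrays, and the groups overlapped.

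Among 12 macrophage surface and secreted markers, 3 fell, 6 were tested and did not pass, and 3 were too low to test. Adgre1, whose adhesion receptor is a standard surface marker of mouse macrophages, read 5.67, 5.53 and 5.65 in the deficient arrays, against 8.06, 7.23 and 7.44 in the control arrays. The deficient arrays lay close together and below all controls, a fall of 3.89-fold (log2 -1.96 ± 0.24, limma adjusted p = 0.00868). Without deficient replicate 2 the adjusted p was 0.0531. Adgre4, a related adhesion receptor of myeloid cells, read 3.62, 4.37 and 4.44 in the deficient arrays, all below 5, against 7.19, 7.23 and 7.03 in the control arrays. With values below 5, the level of the filter, raised to 5, it was at least 4.44-fold lower (limma adjusted p = 0.00183 on the values as given). No fit without 1 array ended the call. Another probe set of Adgre4 stayed below 5 on all arrays and differed by -0.03. With all probe sets of a gene averaged, Adgre4 did not meet the filter and was not tested.

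Adamdec1, a metalloprotease made by gut macrophages and stromal cells, had the largest fitted fall of the 25. It read 6.96, 4.85 and 4.99 in the deficient arrays, against 9.42, 10.79 and 9.83 in the control arrays. Deficient replicate 1 stood apart from the other 2 deficient arrays, yet below every control. With values below 5 raised to 5, it was at least 20.5-fold lower (fitted log2 -4.41 ± 0.62, limma adjusted p = 0.0154). It did not pass without deficient replicate 2 or without any 1 control, with adjusted p up to 0.0723.

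**Figure D2:**
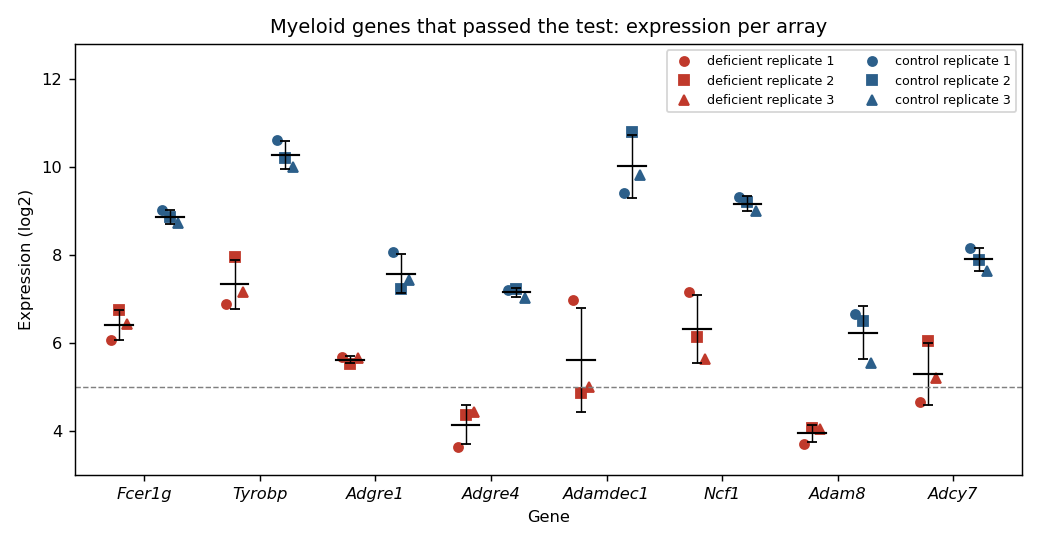
Expression (log2) per array of the 8 myeloid genes that passed the test, with deficient arrays in red left of control arrays in blue. Horizontal bars are means and error bars SDs over 3 arrays, the dashed line is the level 5, and no deficient array of these genes reaches a control array of the same gene.

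The other 6 macrophage markers tested did not pass. Csf1r, the receptor for the growth factor CSF1 on which macrophages depend, read 8.64, 8.60 and 7.07 in the deficient arrays, against 9.03, 8.23 and 8.99 in the control arrays. Only deficient replicate 3 lay below all controls (log2 -0.64 ± 0.46, limma adjusted p = 0.499). Mpeg1, which encodes the pore-forming protein perforin-2, showed the same layout, at 8.05, 8.63 and 5.88 in the deficient arrays and 8.75, 7.91 and 8.43 in the control arrays (limma adjusted p = 0.543). Without deficient replicate 3 the change of Mpeg1 was -0.02. Aif1, which encodes the actin-binding protein IBA1, and Ms4a7 had log2 changes of -0.86 ± 0.43 and -0.67 ± 0.32, and for both the deficient arrays lay below the controls by small margins (limma adjusted p = 0.356 and 0.337).

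Cd14, the co-receptor for lipopolysaccharide, averaged 7.72 ± 0.41 in the deficient arrays and 8.03 ± 0.99 in the control arrays (SD, n = 3 each), and the sign of its change turned to 0.25 without control replicate 1. Lyz2, the lysozyme of macrophages, averaged 10.35 ± 0.80 in the deficient arrays and 10.76 ± 0.89 in the control arrays, and its change turned to 0.10 without control replicate 1. Paneth cells make a near-identical lysozyme from Lyz1, and its signal on the Lyz2 probe set cannot be told apart. Mrc1, the mannose receptor, lay above 5 on 2 arrays, deficient replicates 1 and 2 at 6.89 and 5.20, and at 4.49 to 4.79 on the other 4 arrays. Cd68 and Cd163 never lay above 5, with Cd163 between 2.56 and 2.62 on all 6 arrays.

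The subunits of the phagocyte NADPH oxidase, the enzyme that makes superoxide to kill microbes, did not move alike. Ncf1, the organising subunit p47phox, read 7.16, 6.14 and 5.64 in the deficient arrays, against 9.32, 9.20 and 8.99 in the control arrays. It fell 7.23-fold (log2 -2.85 ± 0.37, limma adjusted p = 0.0121), and did not pass without deficient replicate 2 or without any 1 control (adjusted p up to 0.0672). A further probe set of Ncf1 differed by -2.16, but lay above 5 on the 3 control arrays alone, so only a difference could bring it past that level. Another probe set of Ncf1 stayed below 5 on all arrays and differed by -0.05. Cybb, the catalytic subunit, read 5.82, 6.42 and 5.004 in the deficient arrays, against 8.45, 7.95 and 7.42 in the control arrays. The groups did not overlap, and the change of -2.19 ± 0.41 missed the threshold (limma adjusted p = 0.0505). Without 1 array its adjusted p was 0.0564 or more, and it passed in 2 of the 9 other settings that tested it. Further probe sets of Cybb stayed below 5 on all arrays and differed by -0.02 and -0.12.

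Ncf4, the subunit p40phox, was too low to test at 2.48, 2.49 and 2.48 in the deficient arrays, against 5.02, 4.92 and 4.95 in the control arrays. It passed in the fits that tested every gene above 5 on at least 1 array or all genes. Control replicate 1 alone brought Ncf4 into the first of these fits. With values below 5 raised to 5 its fold was 1.004, so these passes rest on values too low to give a level. Cyba, the membrane partner of Cybb and of the oxidases of epithelial cells, read 9.16, 9.19 and 9.20 in the deficient arrays and 9.04, 8.16 and 9.32 in the control arrays, and the groups overlapped (log2 0.34 ± 0.30, limma adjusted p = 0.575). Of the other oxidase genes, 6 of 10 were measured, 4 were tested and 1 fell. This was Rac2, the blood cell GTPase of the complex, at 1.97, 2.45 and 3.47 in the deficient arrays and 5.99, 5.26 and 5.56 in the control arrays. It was at least 1.52-fold lower (limma adjusted p = 0.0122). Rac1, its widely expressed relative, averaged 12.39 in the deficient arrays and 12.23 in the control arrays, and Rap1a and Noxo1 had log2 changes of 0.21 and 0.18, none of them past the threshold.

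Complement C1q is built from 3 chains that macrophages make together. C1qb read 8.09, 7.73 and 6.79 in the deficient arrays, against 8.67, 8.46 and 8.68 in the control arrays. The groups did not overlap, and the change of -1.07 ± 0.33 did not pass (limma adjusted p = 0.197). Its other 2 probe sets differed by -0.97 and -0.89. C1qa read 5.90, 5.91 and 4.62 in the deficient arrays and 6.36, 5.90 and 6.81 in the control arrays (log2 -0.88 ± 0.41, limma adjusted p = 0.328). C1qc stayed below 5, at 3.54, 3.58 and 2.35 in the deficient arrays and 4.09, 3.48 and 4.34 in the control arrays. Deficient replicate 3 was lowest for each of the 3 chains. Of 8 other complement genes, 5 were measured, 2 were tested and 0 passed. C2 and Cfb had log2 changes of -0.58 and -0.66, 1 of them at an unadjusted p under 0.05 (1504 of all 8893 genes tested).

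Fc receptors, lectins and related receptors were low or overlapped. Fcgr2b, the inhibitory receptor for IgG, read 4.95, 5.38 and 4.75 in the deficient arrays, against 6.88, 5.79 and 4.80 in the control arrays (log2 -0.80 ± 0.50, limma adjusted p = 0.439). Clec7a, the beta-glucan receptor Dectin-1, read 8.96, 8.80 and 7.11 in the deficient arrays, against 8.51, 7.30 and 8.13 in the control arrays (log2 0.31 ± 0.54, limma adjusted p = 0.794). It and Cyba were the 2 tested genes with a higher mean in the deficient arrays. Without deficient replicate 3 the Clec7a change was 0.90. Fcgr3 and Clec4n, the lectin Dectin-2, lay above 5 on 1 and 2 control arrays and on 0 deficient arrays. Lst1, a transcript of leukocytes, read 1.84, 1.78 and 1.75 in the deficient arrays and 4.17, 4.08 and 3.31 in the control arrays, below the level at which genes were tested. Fcgr1 lay between 2.18 and 2.29 on all arrays.

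Of the 4 transcription factors, Irf8 alone was measured above 5. Irf8 serves myeloid and lymphoid cells and read 9.18, 9.44 and 9.51 in the deficient arrays, against 10.10, 9.42 and 9.91 in the control arrays (log2 -0.43 ± 0.22, limma adjusted p = 0.364). A further probe set of Irf8, above 5 on all 6 arrays, differed by -0.82, also with overlap. Spi1 lay between 2.53 and 2.59 on all 6 arrays, and Batf3 and Zbtb46, factors of dendritic cells, between 2.17 and 3.36. The dendritic cell receptors Flt3 and Xcr1 lay between 2.29 and 3.20, and the costimulatory ligand Cd86 between 2.73 and 2.84. These 6 genes, with Cd163, Fcgr1 and Cd68, are 9 members that never lay above 5 and whose group means differed by under 0.2. Values this low give no level. Cd83, a surface protein of activated dendritic cells and lymphocytes, read 8.15, 6.34 and 5.27 in the deficient arrays and 8.17, 6.00 and 8.12 in the control arrays, with wide overlap.

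S100a8 and S100a9 encode the 2 chains of calprotectin, the abundant antimicrobial protein of neutrophils. S100a8 read 4.11, 5.28 and 5.45 in the deficient arrays, against 8.30, 7.15 and 4.04 in the control arrays. S100a9 read 4.44, 5.14 and 5.99 in the deficient arrays, against 8.77, 7.39 and 4.45 in the control arrays. For both, control replicates 1 and 2 stood above every deficient array and control replicate 3 stood among or below them (limma adjusted p = 0.464 and 0.432). Without control replicate 3 the changes were -2.78 and -2.89 in place of -1.55 and -1.68, with limma adjusted p of 0.0988 and 0.124. Without control replicate 1 they were -0.65 and -0.73, and with array weights 0.04 and -0.15. Of 9 measured neutrophil markers, Mmp9 alone lay above 5 on any array. It was at least 2.40-fold lower, at 3.87, 3.84 and 4.14 in the deficient arrays, against 5.34, 6.35 and 7.10 in the control arrays (limma adjusted p = 0.0436). Mmp9 too met the filter through the control arrays alone. It did not pass with robust estimation, a further quantile normalization, values raised to 5 or every gene tested (limma adjusted p from 0.0501 to 0.206), and in the fits without 1 array it passed only without control replicate 1. In Mmp9 control replicate 3 was the highest, unlike in the calprotectin genes.

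Adam8, a membrane metalloprotease of leukocytes, read 3.71, 4.06 and 4.05 in the deficient arrays, against 6.65, 6.503 and 5.54 in the control arrays, without overlap. It was at least 2.35-fold lower (limma adjusted p = 0.013) and passed in 2 of the 6 fits that left out 1 array. With values below 5 raised to 5, as in that fold, it did not pass (limma adjusted p = 0.122), nor with every gene tested (0.104). Adcy7, an adenylyl cyclase abundant in blood cells, read 4.65, 6.04 and 5.21 in the deficient arrays, against 8.16, 7.89 and 7.63 in the control arrays. It was at least 5.59-fold lower (limma adjusted p = 0.0135) and passed in 3 of those 6 fits, failing without any 1 control. Further probe sets of Adcy7 stayed below 5 on all arrays and differed by -0.03 and -1.12. With all probe sets of a gene averaged, Adcy7 did not meet the filter and was not tested. Ctss, the lysosomal protease cathepsin S, which cells that present antigen use to free MHC class II, read 13.01, 12.97 and 13.07 in the deficient arrays, against 13.13, 13.24 and 13.52 in the control arrays. Its change of -0.28 ± 0.17 did not pass (limma adjusted p = 0.418). Of 10 other lysosomal genes, limma called 0, with Ctsd at -0.66 and Lgmn at 1.24. An unadjusted p under 0.05 was reached by 3 of the 10, against 1504 of all 8893 genes tested.

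**Figure D3:**
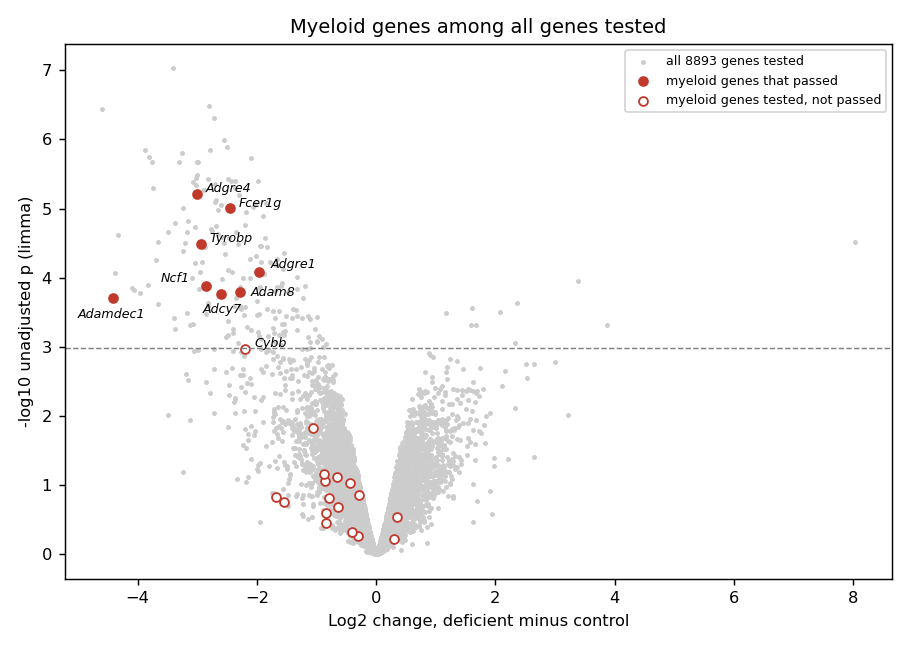
Log2 change, deficient minus control, against -log10 of the unadjusted limma p for all 8893 genes tested (grey) and the 25 tested myeloid genes (red). The dashed line marks the adjusted p of 0.05; the 8 myeloid genes above it lie on the left, Cybb just under it, and 2 of the 25 lie right of 0.

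Promoter sequences are shown for genes of both kinds, those that fell and those that did not pass, because members of a lineage often share binding sites for PU.1. They are the 250 bases before the RefSeq start of build GRCm38.p6, 5′ to 3′. Capitals mark GAGGAA, the core of the PU.1 motif, and a pair of GAAA with any 2 bases between them, the tandem core bound by interferon regulatory factors, on either strand. Fcer1g (chr1:171234350-171234599, minus strand), Adgre4 (chr17:55749734-55749983, plus strand) and Ncf1 (chr5:134229626-134229875, minus strand) fell. C1qb (chr4:136886201-136886450, minus strand) and Ctss (chr3:95526536-95526785, plus strand) did not pass.
Fcer1g: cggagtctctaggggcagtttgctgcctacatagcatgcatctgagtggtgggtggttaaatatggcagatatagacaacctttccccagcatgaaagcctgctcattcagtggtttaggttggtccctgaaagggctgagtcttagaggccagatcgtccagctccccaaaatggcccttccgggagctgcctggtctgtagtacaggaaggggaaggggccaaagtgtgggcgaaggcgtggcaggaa
Adgre4: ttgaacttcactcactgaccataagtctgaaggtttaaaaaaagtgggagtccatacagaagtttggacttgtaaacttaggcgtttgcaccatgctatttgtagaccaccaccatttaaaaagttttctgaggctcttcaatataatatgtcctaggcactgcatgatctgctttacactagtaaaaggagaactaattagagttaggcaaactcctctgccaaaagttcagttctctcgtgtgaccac
Ncf1: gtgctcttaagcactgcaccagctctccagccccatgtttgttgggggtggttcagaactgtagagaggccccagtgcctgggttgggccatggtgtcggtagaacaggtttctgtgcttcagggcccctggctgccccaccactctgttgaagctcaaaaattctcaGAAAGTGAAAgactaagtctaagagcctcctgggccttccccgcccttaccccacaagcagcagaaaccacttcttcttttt
C1qb: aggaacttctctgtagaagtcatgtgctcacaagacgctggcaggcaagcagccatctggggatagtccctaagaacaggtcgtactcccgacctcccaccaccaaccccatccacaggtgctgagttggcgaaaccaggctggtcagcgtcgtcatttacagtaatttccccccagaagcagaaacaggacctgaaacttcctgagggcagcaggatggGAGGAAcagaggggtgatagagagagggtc
Ctss: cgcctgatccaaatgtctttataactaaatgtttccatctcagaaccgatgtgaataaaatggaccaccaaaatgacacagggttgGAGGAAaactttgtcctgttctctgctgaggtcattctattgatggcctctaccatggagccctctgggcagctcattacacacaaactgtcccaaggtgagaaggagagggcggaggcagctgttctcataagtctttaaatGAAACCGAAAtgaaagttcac

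The table of promoters held 34 windows of 28 measured members, some of them overlapping windows of the same gene. GAGGAA was present in 13 of these 34 windows, against 23.3% of all 32851 windows. By gene, it was present in 11 of the 28. It was absent from all 7 windows of the 5 fallen genes that were listed (Fcer1g, Adgre4, Ncf1, Adam8 and Adcy7). Unlike C1qb and Ctss, many genes that did not pass also lacked it, among them Cyba, Cybb, Irf8, Lyz2 and Mpeg1. Its absence therefore does not set the fallen genes apart. The longer GAGGAAG, which contains it, was present in 7 of 34 windows, against 10.6% of all windows. The GAAA pair was present in 4 of 34 windows, 1 of them that of Ncf1, against 2.98% of all windows. A composite of GGAA, any 2 bases and GAAA was present in 3 of 34 windows, against 2.30% of all. By gene, the composite was present in 2 of the 28, Fcgr2b and Clec7a, the latter in overlapping windows. These matches describe letters in the windows and not binding.

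Array by array, the tested myeloid genes showed 2 layouts. For the 8 that fell, each of the 3 deficient arrays lay below all controls for all 8 genes, and the array medians relative to the control mean were -2.92, -2.25 and -2.70 in deficient replicates 1, 2 and 3. For the 17 that did not pass, the medians were -0.46, -0.37 and -1.05, and deficient replicate 3 was the lowest deficient array for 11 of them. A wide spread within a group itself keeps a gene from passing, so the split into these sets is no test. Over all genes tested, deficient replicate 3 was the lowest deficient array for 32.4%. Among the 25, chosen with earlier results known, 13 had all deficient arrays below all controls, 52.0%, against 16.7% of all genes tested. The 5 of these that did not pass were Cybb, C1qb, Ms4a7, Aif1 and Ctss.

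Of 118 other genes of the myeloid pathways in 9 lists, 104 were measured and 48 tested. Of the 48, 6 fell and 0 rose, against 1.98% and 0.112% of all genes tested. The median log2 change of the 48 was -0.41, against -0.04 over all genes tested. Of the 48, 5 met the filter through the control arrays alone, among them Lcp2, Rac2 and Itgax, so only a difference could bring these 3 of the 6 into the test. With values below 5 raised to 5, Rac2 and Itgax no longer passed (limma adjusted p = 0.236 and 0.14). Besides Lcp2 and Rac2, the 6 included Itgax, the integrin CD11c of dendritic cells and some T cells, at least 2.15-fold lower (limma adjusted p = 0.0363). Laptm5, a lysosomal membrane protein of leukocytes, fell 4.01-fold (limma adjusted p = 0.0166). Cebpb, a transcription factor of macrophages that epithelial cells also express, read 11.12, 11.41 and 11.44 in the deficient arrays and 12.35, 12.48 and 12.13 in the control arrays, a fall of 1.99-fold (limma adjusted p = 0.0421). Cd274, the inhibitory ligand PD-L1, fell 2.53-fold (limma adjusted p = 0.0204). Without control replicate 1 or without deficient replicate 2, 1 of these 48 passed. Without control replicate 3, 2 of them passed.

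The lists of growth factors and of innate receptors and cytokines held no gene that passed, and 1 and 3 genes at an unadjusted p under 0.05. That unadjusted level was reached by 1504 of all 8893 genes tested. Of the colony stimulating factors and receptors, 3 of 6 measured were tested, with Csf2 and its receptor chain Csf2rb at log2 changes of -1.45 and -1.37 (limma adjusted p = 0.329 and 0.246). Of the Toll-like receptors and cytokines, 6 of 19 were tested. Il1b, the inflammatory cytokine interleukin-1 beta, read 9.05, 8.87 and 7.78 in the deficient arrays and 10.38, 9.36 and 9.94 in the control arrays (limma adjusted p = 0.189). Arg1, an arginase of macrophages and other cells, read 2.36, 2.69 and 4.74 in the deficient arrays and 8.84, 5.93 and 5.49 in the control arrays, without overlap (limma adjusted p = 0.17).

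Lymphocyte markers were also lower in the deficient arrays. Of 16 T cell and natural killer-like markers, 15 were measured, 11 were tested, and 9 fell, against 1.98% of all genes tested. Of the 9, Cd3d, Cd7 and Il2rb met the filter through the control arrays alone. The mean of the 11, relative to its control mean, was -4.13, -3.40 and -2.63 in deficient replicates 1, 2 and 3, against -0.10 to 0.16 in the control arrays. The mean of the 25 myeloid genes was -1.31, -1.16 and -1.77 in these deficient arrays, against -0.25 to 0.43 in the control arrays. Deficient replicate 3 was thus highest of the deficient arrays for the lymphocyte markers and lowest for the myeloid genes. Among the 8 myeloid genes that fell, deficient replicate 1 was lowest for 5 and replicate 3 for 1. Among the 11 lymphocyte markers replicate 1 was lowest for 9 and replicate 3 for 0. For all genes tested these shares were 39.3% and 32.4%. Klrd1, a natural killer receptor chain, read 5.83, 5.90 and 6.47 in the deficient arrays, against 9.86, 9.004 and 8.85 in the control arrays (limma adjusted p = 0.00379). The part of lymphocytes in the values of Fcer1g, Tyrobp and the other genes both cell types use was not tested.

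**Figure D4:**
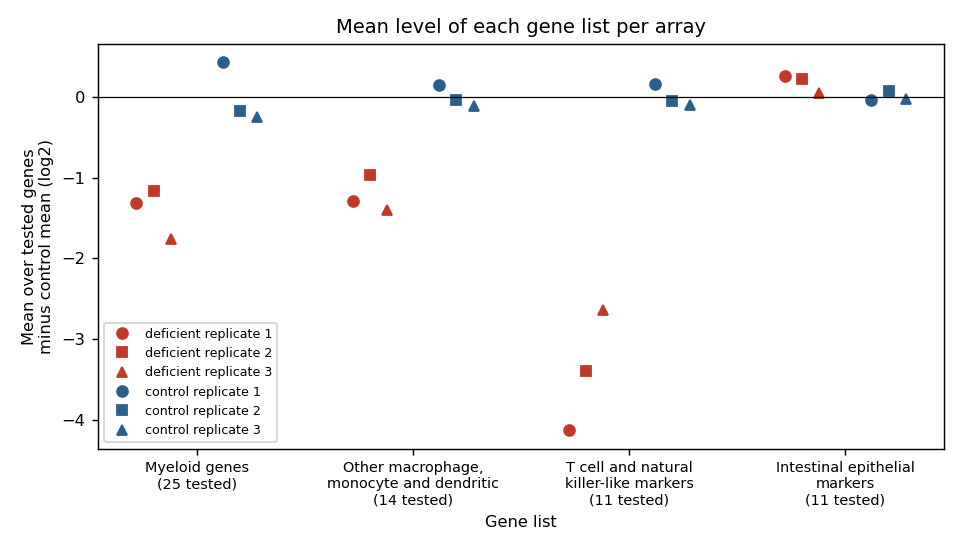
Mean level of the tested genes of 4 lists on each array, minus the mean over the control arrays (log2), with deficient arrays in red left of control arrays in blue. Deficient replicate 3, the triangle, is the lowest for the myeloid genes at -1.77 and the highest of the deficient arrays for the T cell and natural killer-like markers at -2.63, while the epithelial markers lie between -0.04 and 0.25 on all 6 arrays.

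Markers of further cell types were few above the filter. Of the B and plasma cell markers 2 of 8 measured were tested, Jchain and Igha, at log2 changes of -1.62 and -1.08. Of the mast cell markers 3 of 9 were tested, with Mcpt1 at -0.36 and Kit at -0.49, and of the eosinophil markers 1 of 4, Siglecf at -1.23. Of the stromal and endothelial markers 4 of 9 were tested, with Col1a2 at -1.69 and Col3a1 at -1.74. Apart from Mmp9, 0 genes of these 5 lists passed (limma), and 4 of them had an unadjusted p under 0.05, against 1504 of all 8893 genes tested. Among the epithelial markers Krt18 and Cdh1 stood at 0.95 and 0.32 (limma adjusted p = 0.229 and 0.376).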

How the data were processed

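Total RNA of 6 intestinal epithelial cell preparations was measured on Affymetrix arrays. Each probe set has 1 log2 value per array as deposited by the authors. Partek 6.5 and GCRMA are named, without their roles, per the submitters' processing notes. That the scale is log2 was read from the range (0.42 to 16.4, array medians 3.26 to 3.33). No scanner files or detection calls were analysed here. The number of arrays limits the precision.

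Of 45101 probe sets, 64 controls were left out, and 34945 had 1 gene symbol in the platform annotation, 932 several and 9160 none. Genes above 5 on at least 3 arrays were tested with limma 3.58.1 in R 4.3.3 (lmFit, eBayes, no covariate), with Benjamini-Hochberg adjustment over 8893 genes and a threshold of 0.05. Changes are deficient minus control. Where arrays lay at or below 5, values were raised to 5 for folds given as "at least". The fit was tested on simulated data. An exact permutation test of 3 against 3 arrays cannot go below 0.1, two-sided.

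The members and lists were chosen with earlier results of these data known. Values of all members are given; of every other list, up to 4 genes that passed, by smallest p, or else up to 2 with the smallest p, and others are named after their values were seen. Not every listed gene was analysed here. Same-numbered arrays were checked for pairing (correlations of deviations from the group means 0.05, -0.29 and 0.002), and were not treated as pairs. The labels call the replicates biological. Alternatives were other variance models, array weights, filters, a further quantile normalization, raised low values, other probe set choices, a replicate block and leaving out each array.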

Additional observations from a re-analysis of the deposited data

How the results depend on the processing

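None of the named genes that passed turned direction under the alternatives run. The 8 myeloid genes that passed became 3 (2 of them shared, Fcer1g and Adgre4, with Ncf4) when every gene was tested, and 6 to 9 under the other 9 settings. Under those 9 settings, 19 to 29 myeloid genes were tested. Tyrobp, Adgre1, Adam8, Ncf1, Adcy7 and Adamdec1 did not pass with every gene tested (limma adjusted p from 0.0568 to 0.129). With every gene tested, 18193 in place of 8893, calls over all genes were 85 lower and 0 higher in place of 176 and 10, and those of other myeloid genes 1 in place of 6. With all probe sets of a gene averaged these were 111, 6 and 3, and with array weights 33 genes were higher. Leaving out 1 array gave 4 to 8 myeloid genes, a median of their changes from -1.16 to -0.66, 1 to 5 other myeloid genes, 88 to 203 lower genes and 3 to 36 higher genes. Myeloid genes that passed were 4 without deficient replicate 2, control replicate 1 or control replicate 2, and 5 without control replicate 3. Fcer1g, Tyrobp and Adgre4 passed in all 6 of these fits. With the replicate number as a block, 8 myeloid genes, 132 lower and 9 higher genes passed; Adamdec1 was at an adjusted p of 0.0574 and Cybb at 0.0358. Of 6 arrays, 1 correlated best with its own number. Signal limits the 15 untested members, of which 11 never lay above 5. The causes of these shifts were not tested.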
